A study of Mus musculus with 7 samples.

Results

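The actin cytoskeleton and migration machinery is described here as 45 genes chosen by name: the actins, the Arp2/3 complex and its activators, a formin, and the proteins that lengthen, cap, cut, bundle and anchor actin filaments or pull on them as myosin. All 45 names had exactly 1 row in a table of 35641 genes, and all 45 passed the filter on low values (a mean of at least 10 normalized counts). The cells, labelled neutrophils, came from lungs of female mice of the strain C57BL6, and their RNA was sequenced. The groups are called HF and LF; the sources used here spell out neither these names nor the age of the mice. Each group, 4 HF and 3 LF libraries, has as many mice in the design text as libraries, and no genetic change or treatment is named for any. The labelled sort gate was CD45+ and CD11b+, low for Ly6C and positive for Ly6G. The study's title concerns oxidative stress of neutrophils in obesity, and the comparison is that of lung neutrophils of HF and LF mice.

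The libraries labelled LF went against that sort. The gene of the Ly6G protein, Ly6g, stood at 4431, 1301, 2378 and 4944 normalized counts (reads divided by 1 size factor per library) in HF1 to HF4 and at 0.749, 0 and 8.22 in LF6 to LF8, as the table names these columns. Of 14 neutrophil markers 13 were higher in HF, and their summed level was 445186 to 601660.0 in HF and 13020.3 to 14400.3 in those labelled LF. All 12 monocyte markers were lower in HF, with sums of 21640.1 to 30426 and 169616 to 178701. No neutrophil marker and no monocyte marker was at 0 in all libraries of a group. Every difference below therefore compares the HF libraries with libraries that carry the label LF and hold far less of the neutrophil markers, and the part of these markers in the actin genes was not tested. In such bulk samples, fewer cells of a type and less RNA per cell cannot be told apart. The depth was 13943173 to 16599658 reads on genes in the HF libraries, against 16974428 to 18983351 in the others.

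Actin filaments are polar polymers of a small globular protein. A crawling leukocyte pushes its front forward by branching new filaments off old ones, a step carried out by the Arp2/3 complex when proteins of the WASP family switch it on. Profilin and thymosins hold the free subunits, cofilin and coronins recycle old filaments, capping proteins stop their growth, and crosslinkers such as plastin and filamin set the stiffness of the network. Talin and kindlin couple the filaments to integrins, ezrin and moesin couple them to the plasma membrane, and non-muscle myosin contracts the rear. Neutrophils depend on this machinery to leave the blood, to move through tissue and to engulf particles.

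Most of the 45 genes were higher in HF with the scaling of the deposited table, while a minority was lower. In limma's test over 14936 genes on log2(normalized count + 1), 32 of 45 were higher in HF, 9 were lower and 4 did not pass an adjusted p of 0.05, against 26.2% higher and 28.7% lower among all genes tested (55.0% called in either direction). The same 32 and 9 genes had groups that did not overlap, against 28.4% and 33.7% of all genes tested (62.2% in either direction). The median log2 difference (HF minus the libraries labelled LF) was 0.67, against -0.16 over all genes tested. Differences ran from -2.50 (Evl) to 6.40 (Actn1), and 16 of 45 genes differed by at least 1 in either direction, where 56.7% of all genes tested did.

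**Figure D1:**
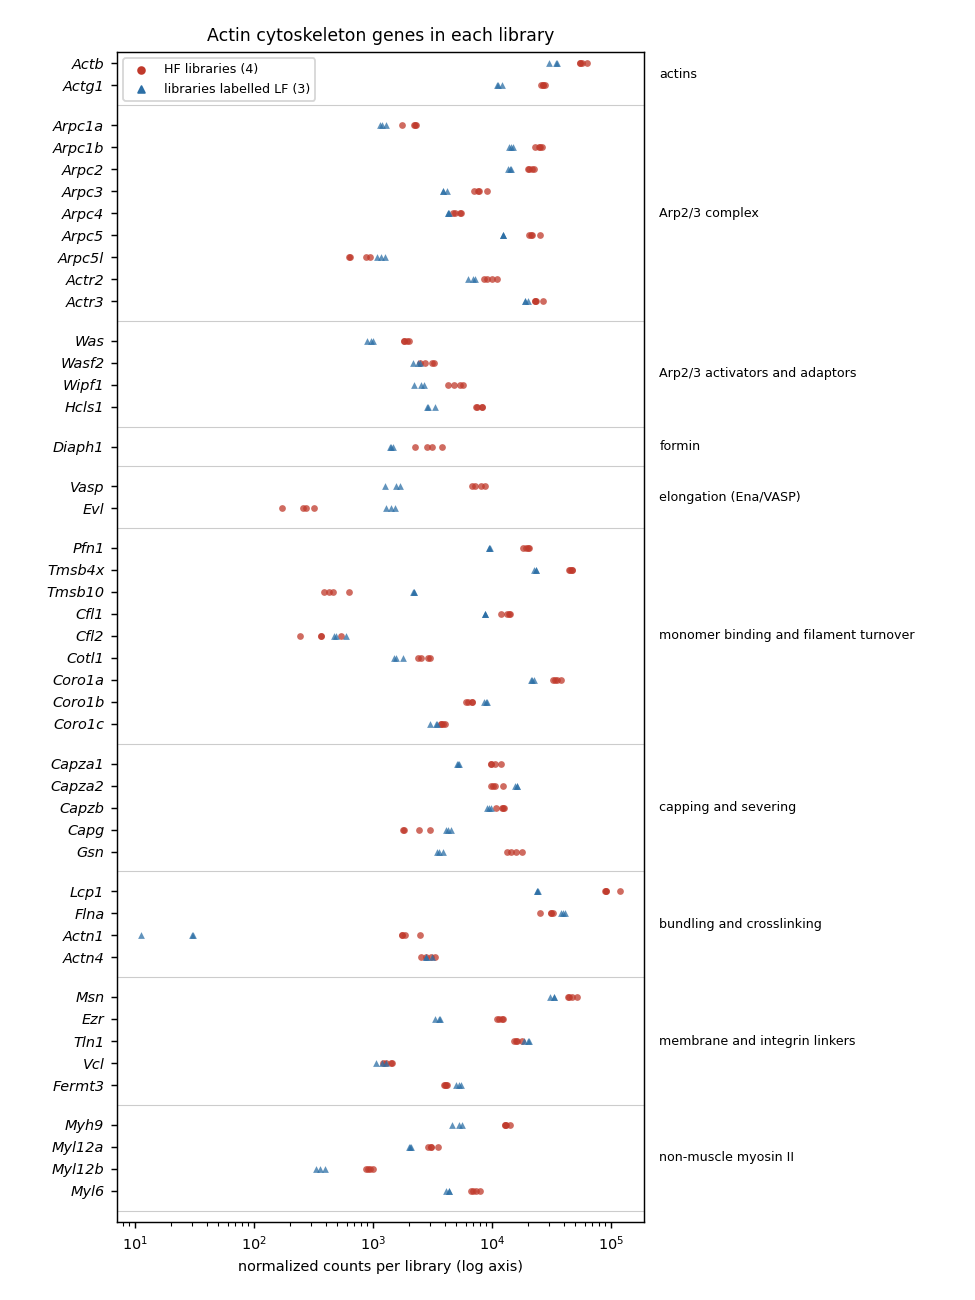
Normalized counts of the 45 genes in each of the 7 libraries on a log axis, grouped by role (circles: 4 HF libraries; triangles: 3 libraries labelled LF; each point is 1 library). For 32 genes all circles lie to the right of all triangles, for 9 they lie to the left, and for 4 (Wasf2, Cfl2, Actn4 and Vcl) the groups overlap.

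The balance of higher and lower genes moved with the scaling of the libraries. HF libraries held larger totals of normalized counts (17926505 to 19520195) than those labelled LF (12742618 to 13085106). TMM scaling, equal library totals and quantile normalization gave 27 higher and 10 lower, 21 and 16, and 16 and 22. Among all genes tested these scalings called 21.1% higher and 36.6% lower, 18.0% and 42.6%, and 25.0% and 26.4%. TMM and equal totals moved the median of all genes by -0.31 and -0.54 on the log2 scale. Relative to the median of all genes, the median of the 45 was higher by 0.83 as deposited, 0.84 with TMM and 0.85 with equal totals. After quantile normalization it was higher by 0.0059 only.

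Of the 45 genes, 14 were called higher under all 4 of these scalings: Actg1, Arpc3, Was, Wipf1, Hcls1, Diaph1, Vasp, Capza1, Gsn, Lcp1, Actn1, Ezr, Myh9 and Myl12b. Another 9 were called lower under all 4: Arpc5l, Evl, Tmsb10, Coro1b, Capza2, Capg, Flna, Tln1 and Fermt3. Among the 14798 genes tested under all 4, 17.2% were called higher and 23.5% lower in each. In 16 genes the sign of the difference changed with the scaling, namely Actb, Arpc1b, Arpc2, Arpc4, Arpc5, Actr2, Actr3, Wasf2, Tmsb4x, Cfl1, Coro1a, Coro1c, Capzb, Actn4, Msn and Vcl. The remaining 6 (Arpc1a, Pfn1, Cfl2, Cotl1, Myl12a and Myl6) kept their sign and lost or gained the call under at least 1 scaling. For the 16 genes, the direction given below is that of the deposited scaling and holds for that scaling.

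**Figure D2:**
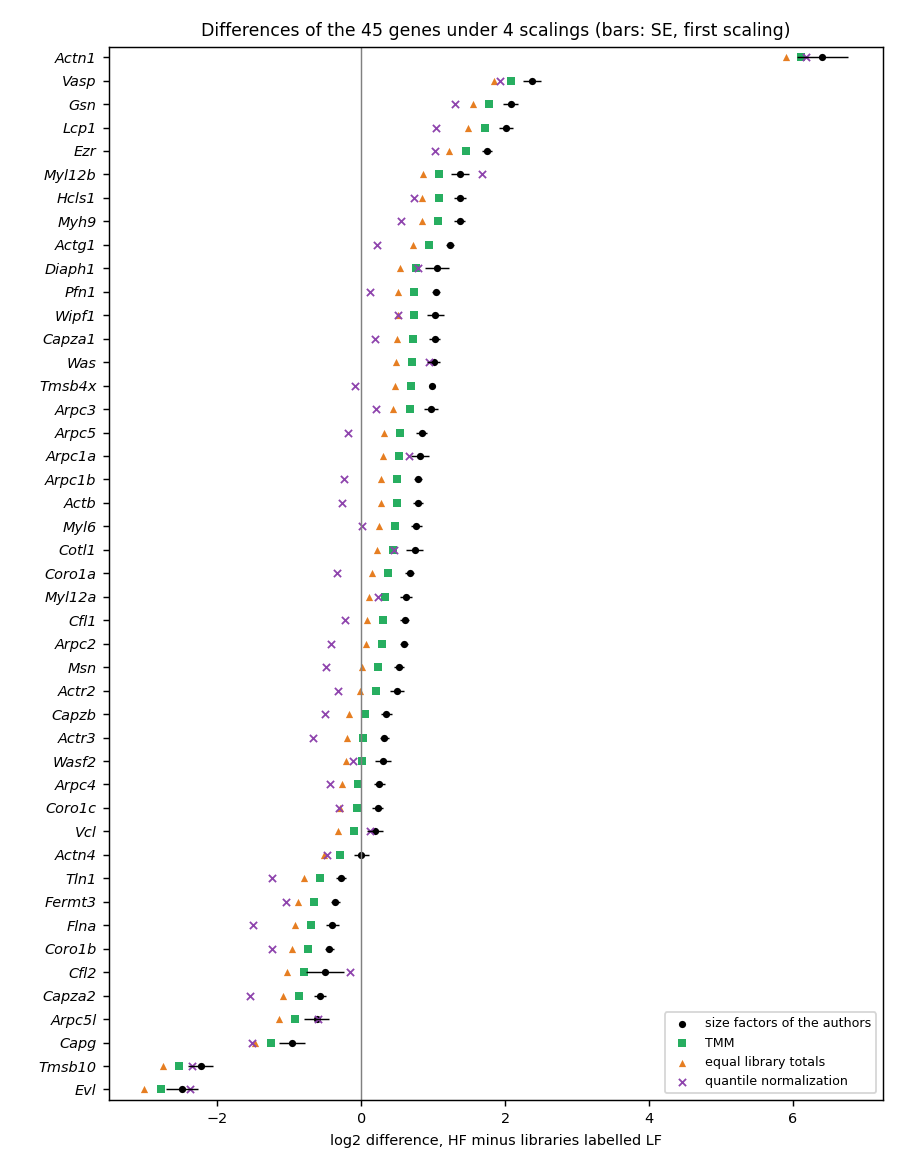
Log2 difference of each of the 45 genes (HF minus the libraries labelled LF) under 4 scalings of the libraries, sorted by the value from the size factors of the authors, whose standard errors are drawn as bars. Actn1, Vasp, Gsn, Lcp1 and Ezr lie right of 0 and Evl, Tmsb10 and Capg left of 0 under all 4, while Actb and Msn lie on both sides of 0.

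Windows of 300 bases, 250 before and 50 after an annotated start, came from the RefSeq promoter table (GRCm38.p6). For 40 of the 45 genes there were windows to search, 50 in all. Actb, Arpc5l, Coro1b, Cotl1 and Diaph1 had no window among those searched. Windows on a single chromosome were left out of the search for all genes before this count. A gene can therefore lack a window through that choice, and which of these genes do is not given. The CArG box, the binding motif of serum response factor, which controls many genes of the actin cytoskeleton, was searched on both strands. It stood in 4 of the 50 windows (8%), in Actg1, Myl6, Vcl and Arpc4, against 1.63% of all 32851 windows searched. GGGCGG, the letters bound by Sp1, stood in 74% of the windows of these genes and 35.7% of all windows. GAGGAA, the core bound by PU.1 and other ETS factors, stood in 20% and 28.3%, and TATAAA in 4% and 13.6%. TATAAA can lie inside a CArG box, and matches of GGGCGG can adjoin or overlap. Stretches of 120 bases are printed for the 4 genes with a CArG box (capitals), and for Actn1, the gene with the largest difference. In the stretch of Actn1, 2 matches of GGGCGG are in capitals, seen there as its reverse complement. Its window also holds matches outside the stretch, at -209 and -181. The stretches lie at chr11:120348496-120348615 (minus strand), chr10:128493010-128493129 (minus strand), chr14:20929148-20929267 (plus strand), chr6:113377863-113377982 (plus strand) and chr12:80260364-80260483 (minus strand), and each is written 5′ to 3′ on the strand of its gene.
Actg1: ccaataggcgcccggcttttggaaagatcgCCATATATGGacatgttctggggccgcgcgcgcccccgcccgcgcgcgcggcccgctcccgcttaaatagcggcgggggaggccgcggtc
Myl6: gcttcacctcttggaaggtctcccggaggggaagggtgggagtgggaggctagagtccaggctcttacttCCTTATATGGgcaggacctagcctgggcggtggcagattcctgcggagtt
Vcl: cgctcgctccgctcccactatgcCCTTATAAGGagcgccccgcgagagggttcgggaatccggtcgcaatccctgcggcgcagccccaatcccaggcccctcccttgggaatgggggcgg
Arpc4: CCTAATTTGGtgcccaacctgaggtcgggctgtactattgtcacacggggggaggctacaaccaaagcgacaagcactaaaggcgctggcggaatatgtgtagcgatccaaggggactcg
Actn1: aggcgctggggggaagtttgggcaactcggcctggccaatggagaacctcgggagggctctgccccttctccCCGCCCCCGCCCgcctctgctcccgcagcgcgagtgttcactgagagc
Counted from the start, the first base of the box lies at -90 in Actg1, -50 in Myl6, -227 in Vcl and -250 in Arpc4. Genes with the box differed unequally, from 0.19 ± 0.11 in Vcl, which did not pass (limma adjusted p = 0.18), to 1.24 ± 0.05 in Actg1 (SE).

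Both cytoplasmic actins were higher in HF with the deposited scaling, gamma-actin by more than beta-actin. Actb, the gene of beta-actin, stood at 55423, 56810.5, 55324 and 62761 normalized counts in HF1 to HF4 and at 34809, 34997 and 30305 in LF6 to LF8. Actg1, the gene of gamma-actin, stood at 26817, 25891, 27131 and 28049 and at 12087, 11321 and 10975. The groups did not overlap in either gene, and the log2 differences were 0.79 ± 0.07 (SE; limma adjusted p = 3.5e-05) and 1.24 ± 0.05 (SE; limma adjusted p = 6.9e-07). With equal totals they were 0.27 and 0.72, and after quantile normalization -0.27 and 0.22. Within a library, where a size factor has no part, the log2 ratio of Actb to Actg1 was 1.03 to 1.16 in HF and 1.47 to 1.63 in those labelled LF (difference -0.45, exact permutation p = 0.0286 and 0.0343 adjusted over the 12 pairs). Of the 50-base stretches of the longest coding transcript, 56.7% for Actg1 and 14.2% for Actb also occur in transcripts of other genes, so reads of both are uncertain to that extent. Muscle actin genes were listed beside them. Acta2, the smooth muscle actin gene, stood at 1604, 1716, 1297 and 1949 in HF and at 83.2, 83.3 and 75.3 in those labelled LF, a difference of 4.32 ± 0.17 (SE; limma adjusted p = 5e-07). Actc1, the cardiac actin gene, was at 74.9, 0, 0 and 14.1 in HF and 0 in every library labelled LF and did not pass (limma adjusted p = 0.23). Other smooth muscle and fibroblast markers were near 0 in many libraries, with Cnn1 at 0, 0, 0 and 19.2 and Myh11 at 0, 32.1, 1.12 and 3.85 in HF. Dcn was at 0 in every HF library. Over the whole list of 10, which includes Acta2, the summed level was 1404 to 2004 in HF and 99.6 to 125 in the others, most of it Acta2 itself. Of its 6 members tested, Acta2 and Tagln, at 27.7, 20.6, 20.2 and 16.7 in HF and 5.24, 4.5 and 4.79 in the others, were higher in HF. The part of such cells in Acta2 was not tested.

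The Arp2/3 complex, the nucleator of branched filaments, had 8 of its 9 genes higher in HF and 1 lower with the deposited scaling, with a median of 0.59. Arpc3, a small subunit, was the 1 gene of the complex called higher under all 4 scalings, at 7569, 7028, 7732 and 9123 in HF and 4206, 3913 and 3908 in those labelled LF (log2 difference 0.97 ± 0.09, SE; limma adjusted p = 6.9e-05). Arpc5, one of a pair of alternative small subunits, stood at 21843, 20653, 21128 and 25282 and at 12457, 12317 and 12388. Its counterpart Arpc5l went the other way, at 875, 629, 947 and 645 and 1088, 1175 and 1258, a difference of -0.62 ± 0.17 (SE; limma adjusted p = 0.017). The groups did not overlap in any of the 3. The call of Arpc5l was lost without LF7 (limma adjusted p = 0.057) and without LF8 (0.07), and over all alternatives its adjusted p ranged from 0.0009 to 0.07. In the ratio of Arpc5 to Arpc5l, HF stood at 4.48 to 5.29 and the libraries labelled LF at 3.30 to 3.52 on the log2 scale (difference 1.46, exact permutation p = 0.0286 and 0.0343 adjusted over the 12 pairs). Per length of exons, Arpc5 made up 97.8% to 98.7% of the pair in HF and 95.1% to 95.8% in those labelled LF. These shares depend on the length used. The exons of Arpc5 and Arpc5l span 2276 and 4498 bases, but their longest coding transcripts 1914 and 1339.

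The other alternative pair of the complex, Arpc1a and Arpc1b, had ratios that overlapped between the groups. Arpc1b, the isoform that predominates in blood cells, had 24956 ± 1500.5 (SD, n = 4) in HF, against 14426 ± 538 (SD, n = 3) in those labelled LF, and Arpc1a had 2139 ± 264 (SD, n = 4) and 1207 ± 78.8 (SD, n = 3). Their log2 ratio (Arpc1a over Arpc1b) was -3.87 to -3.32 and -3.65 to -3.48, with overlapping groups and a difference of 0.029 (exact permutation p = 0.857). After quantile normalization that difference was 0.89. The core subunits Actr2 and Actr3, the actin-like proteins that start the branch, had differences of 0.50 ± 0.09 and 0.32 ± 0.07 (SE). Arpc2 and Arpc4, the scaffold of the complex, had 0.59 ± 0.05 and 0.25 ± 0.08 (SE). With equal totals these 4 genes came to -0.02, -0.20, 0.07 and -0.27. The call of Arpc4 (limma adjusted p = 0.023) was also lost without any 1 of the libraries labelled LF, and its adjusted p over all alternatives ranged from 0.0012 to 0.66. About the copies, 49.8% of the 50-base stretches of Actr3 occur in other genes as well.

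Genes of proteins that switch the Arp2/3 complex on or hold its activators were higher in HF in 3 of 4 cases, and these 3 were called under all 4 scalings. Was, the gene of the Wiskott-Aldrich syndrome protein, the main activator in blood cells, stood at 1839, 1919.5, 1832 and 2026 in HF and 996, 889.6 and 958 in those labelled LF. Its chaperone WIP, encoded by Wipf1, stood at 4801, 4274, 5431 and 5738 and 2685, 2218 and 2521. Hcls1, the blood cell relative of cortactin, which steadies branches, stood at 8252, 7474, 7332 and 8206 and 2900.3, 2857 and 3322. All HF libraries lay above the others in these 3 genes, and the differences were 1.01 ± 0.09 (SE; limma adjusted p = 5.1e-05), 1.03 ± 0.12 (SE; limma adjusted p = 0.00019) and 1.37 ± 0.08 (SE; limma adjusted p = 4.5e-06). Wasf2, the gene of an activating subunit of the WAVE complex, had a mean of 2896 ± 351 (SD, n = 4) and 2342 ± 172 (SD, n = 3), overlapped and did not pass (limma adjusted p = 0.055). It passed without HF1 (limma adjusted p = 0.017; range over all alternatives 0.017 to 0.97). Diaph1, the formin that grows unbranched filaments, stood at 2249, 2846, 3139 and 3773 and 1476, 1384 and 1413, with all 4 HF libraries above, and differed by 1.05 ± 0.16 (SE; limma adjusted p = 0.00091).

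The genes of the Ena/VASP proteins, which lengthen filaments at their growing ends, went opposite ways. Vasp stood at 8069.5, 6755, 7271 and 8736 in HF and at 1256, 1680.1 and 1551 in those labelled LF. Evl, its relative, stood at 257, 171, 275 and 319 and at 1286, 1409.8 and 1547. Vasp was about 5.15 times as high in HF and Evl about 5.54 times as high in those labelled LF, in ratios of means, with log2 differences of 2.37 ± 0.13 (SE; limma adjusted p = 2.4e-06) and -2.50 ± 0.22 (SE; limma adjusted p = 4e-05). In every HF library Vasp exceeded Evl, with a log2 ratio of 4.72 to 5.30, while in those labelled LF the ratio lay between -0.03 and 0.25 (difference 4.86, exact permutation p = 0.0286 and 0.0343 adjusted over the 12 pairs). Per length of exons, Vasp made up 96.7% to 97.8% of the pair in HF and 52.3% to 57.2% in those labelled LF.

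Among proteins that hold actin subunits, the 2 thymosins went opposite ways with the deposited scaling. Tmsb4x, the gene of thymosin beta-4, the chief store of free actin in leukocytes, stood at 46716, 45539, 44428 and 47351 in HF and at 23671, 23676 and 22528 in those labelled LF. Tmsb10 stood at 458, 389.6, 427 and 625 and at 2231, 2221 and 2153. The groups lay apart in both genes, with log2 differences of 0.98 ± 0.04 (SE; limma adjusted p = 6.8e-07) and -2.23 ± 0.17 (SE; limma adjusted p = 1.6e-05). Tmsb4x came to -0.08 after quantile normalization, while Tmsb10 lay between -2.75 and -2.23 over the 4 scalings. Their log2 ratio was 6.24 to 6.87 in HF and 3.39 to 3.41 in those labelled LF (difference 3.22, exact permutation p = 0.0286 and 0.0343 adjusted over the 12 pairs). Of the 50-base stretches of Tmsb10, 43.5% occur in other genes, and of those of Tmsb4x 0%. Pfn1, the gene of profilin, which feeds subunits to growing ends, had 19539 ± 1021 (SD, n = 4) and 9547 ± 141 (SD, n = 3) and differed by 1.03 ± 0.06 (SE; limma adjusted p = 2.3e-06). After quantile normalization its difference was 0.12 and did not pass (limma adjusted p = 0.099).

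Filament turnover genes were mixed. Cfl1, the gene of the main cofilin, which severs old filaments, had 13324 ± 919 (SD, n = 4) in HF, against 8762 ± 59.9 (SD, n = 3) in those labelled LF, a difference of 0.60 ± 0.07 (SE) that came to 0.08 with equal totals and -0.22 after quantile normalization. Its muscle relative Cfl2 was lower in level, at 363, 365, 242 and 537 and 594, 469.9 and 493, overlapped between groups and did not pass (limma adjusted p = 0.13). Cfl2 was called lower in HF with TMM, at -0.80 (limma adjusted p = 0.029), and with equal totals, at -1.03 (limma adjusted p = 0.0083). After quantile normalization it did not pass, at -0.16 (limma adjusted p = 0.61). It also passed without HF4 (limma adjusted p = 0.031, range over all alternatives 0.0083 to 0.61). The log2 ratio of Cfl1 to Cfl2 did not overlap between groups, at 4.71 to 5.78 and 3.88 to 4.23, but missed the threshold (difference 1.11, exact permutation p = 0.0571 and 0.0623 adjusted over the 12 pairs) and was -0.067 after quantile normalization. Cotl1, a coactosin-like partner of filaments, differed by 0.74 ± 0.11 (SE).

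The 3 coronins, which help to clear branches, did not move together. Coro1a, the coronin of blood cells, stood at 35018, 33601, 32314 and 38039 in HF and 22524, 21287 and 21567 in those labelled LF. Coro1b stood at 6815, 6279, 6835 and 6114 and 8949, 8529 and 9082, lower in every HF library. The differences were 0.67 ± 0.06 (SE; limma adjusted p = 4.6e-05) and -0.44 ± 0.07 (SE; limma adjusted p = 0.00067), and that of Coro1a turned to -0.34 after quantile normalization. Coro1c differed by 0.23 ± 0.08 (SE; limma adjusted p = 0.031), a call that was lost without HF1, HF2, LF6, LF7 or LF8 (limma adjusted p of 0.051 to 0.15). The log2 ratio of Coro1a to Coro1b was 2.24 to 2.64 in HF and 1.25 to 1.33 in those labelled LF (difference 1.12, exact permutation p = 0.0286 and 0.0343 adjusted over the 12 pairs), and that of Coro1a to Coro1c differed by 0.44, exact permutation p = 0.0286 and 0.0343 adjusted over the 12 pairs. The last was -0.032 after quantile normalization, which changes values within a library too. Part of the transcript of Coro1b (20.8% of 50-base stretches) is shared with its neighbour Ptprcap.

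The genes of the alternative alpha subunits of capping protein, which blocks growing filament ends, went opposite ways. Capza1 stood at 10544, 9904, 9878 and 12034 in HF and 5306, 5196 and 5119 in those labelled LF. Capza2 stood at 10658, 9901, 10209.7 and 12484 and 16200.0, 15725 and 16182. The first was higher and the second lower in every HF library, with differences of 1.02 ± 0.08 (SE; limma adjusted p = 2e-05) and -0.57 ± 0.08 (SE; limma adjusted p = 0.00059). The log2 ratio of Capza1 to Capza2 lay between -0.053 and 0.00037 in HF, so that both had nearly equal counts, and at -1.66 to -1.60 in those labelled LF (difference 1.59, exact permutation p = 0.0286 and 0.0343 adjusted over the 12 pairs). Per length of exons, Capza1 made up 60% to 60.9% of the pair in HF and 33% to 34% in those labelled LF. Which gene predominates in HF depends on the length used. The exons of Capza1 and Capza2 span 3781 and 5890 bases, but their longest coding transcripts 3193 and 2537. In Capza1 73.8% of the 50-base stretches also occur in other genes, the highest share among the 45, and in Capza2 0%, so the count of Capza1 is uncertain. The shared beta subunit Capzb had 11989.7 ± 857 (SD, n = 4) and 9394 ± 359 (SD, n = 3), a difference of 0.35 ± 0.07 (SE) that turned to -0.17 with equal totals.

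The gelsolin family also split. Gsn, the gene of gelsolin, which cuts filaments when calcium rises, stood at 17996, 14364, 13506 and 15893 in HF and 3589.6, 3486 and 3875 in those labelled LF. Capg, a relative that caps without cutting and is known from macrophages, stood at 3003, 1792, 1842 and 2442 and 4277, 4135 and 4546. Gsn was 4.23 times as high in HF and Capg 1.9 times as high in those labelled LF in ratios of means, with log2 differences of 2.07 ± 0.10 (SE; limma adjusted p = 1.5e-06) and -0.96 ± 0.18 (SE; limma adjusted p = 0.0025). Both calls held under all 4 scalings. Alveolar macrophage markers were present in both groups, and their sum came to 33519.6 in HF1, 9364 to 11673 in the other HF libraries and 24431 to 26940.2 in those labelled LF. Marco was at 0 in all HF libraries, and of the 9 markers tested 3 were higher and 3 lower in HF. HF1 was also the highest HF library for Gsn and Capg, and the part of these markers in either gene was not tested. Without HF1 both calls held, and the difference of Capg was -1.11.

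Among crosslinkers, Lcp1 and Actn1 were far higher in HF and Flna was lower. Lcp1, the gene of L-plastin, which bundles filaments in leukocytes, stood at 89478, 91393, 90086 and 118231 in HF and 23913, 24458 and 23767 in those labelled LF. It ranked 2 of all genes by mean normalized count in HF and 17 in those labelled LF, and differed by 2.01 ± 0.10 (SE; limma adjusted p = 1.3e-06). Of all normalized counts of the 45 genes, Lcp1 took 13.9% to 16.7% in HF and 5.93% to 6.29% in those labelled LF. Flna, the gene of filamin A, which joins filaments at wide angles, stood at 31438, 25364, 31144 and 32578 and 41167, 38190.1 and 39486, lower in every HF library (difference -0.40 ± 0.09, SE; limma adjusted p = 0.005).

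Actn1, one of 2 non-muscle alpha-actinins, showed the largest difference of the 45. It stood at 1849, 1765, 1761 and 2469 in HF and at 11.2, 30 and 30.8 in those labelled LF, where it had 100 reads in all. The ratio of means was 81.6, and the log2 difference was 6.40 ± 0.35 (SE; limma adjusted p = 2.7e-06). The other alpha-actinin, Actn4, had a mean of 2925 ± 348 (SD, n = 4) and 2910.4 ± 194 (SD, n = 3), with overlapping groups (limma adjusted p = 0.99). Actn4 was called lower in HF with equal totals, at -0.52 (limma adjusted p = 0.0042), and after quantile normalization, at -0.47 (limma adjusted p = 0.0037). The log2 ratio of Actn1 to Actn4 was -0.84 to -0.17 in HF and -7.84 to -6.49 in those labelled LF (difference 6.40, exact permutation p = 0.0286 and 0.0343 adjusted over the 12 pairs). Per length of exons, Actn1 made up 38.2% to 49.6% of the pair in HF and 0.442% to 1.18% in those labelled LF. Platelets, which are rich in alpha-actinin, were followed by 10 markers found in the table, of which 8 were higher in HF and 0 lower. Their sum was 6169 in HF3, 1996 to 2887 in the other HF libraries and 616 to 1043 in those labelled LF, and none of the 10 was at 0 in all libraries of a group. The difference of Actn1 without HF3 was 6.45, and the part of platelets in it was not tested.

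With the deposited scaling both membrane linkers were higher in HF and 2 of 3 integrin linkers were lower. Ezr, the gene of ezrin, stood at 12372, 11458, 12184 and 11060.4 in HF and 3569, 3304 and 3667 in those labelled LF, and differed by 1.74 ± 0.07 (SE; limma adjusted p = 4.6e-07). Msn, the gene of moesin, the main member of this family in leukocytes, stood at 44062, 43855, 47369.9 and 51630.5 and 32931, 31049 and 33259, a difference of 0.53 ± 0.06 (SE; limma adjusted p = 0.00025) that came to 0.0051 with equal totals and -0.49 after quantile normalization. The log2 ratio of Msn to Ezr was 1.83 to 2.22 in HF and 3.18 to 3.23 in those labelled LF (difference -1.22, exact permutation p = 0.0286 and 0.0343 adjusted over the 12 pairs). Tln1, the gene of talin, which switches integrins on, stood at 17913, 15237, 15939 and 16129 and 20635, 18479 and 20119.8. Fermt3, the gene of kindlin-3, its partner in blood cells, stood at 3962, 4124, 4063 and 4161 and 5284, 4965 and 5473. Every HF library lay below every other library in both, with differences of -0.28 ± 0.07 (SE; limma adjusted p = 0.0097) and -0.36 ± 0.06 (SE; limma adjusted p = 0.0019), called under all 4 scalings. Vcl, the gene of vinculin, which strengthens the talin link, stood at 1455, 1216, 1418 and 1299 and 1284, 1068 and 1186 and did not pass, but was called lower with equal totals, at -0.33 (limma adjusted p = 0.033).

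All 4 genes of non-muscle myosin II, the motor that contracts actin, were higher in HF with the deposited scaling. Myh9, the gene of the heavy chain, stood at 13142, 12868, 12988 and 14192 in HF and 5257, 5644 and 4608 in those labelled LF (difference 1.37 ± 0.08, SE; limma adjusted p = 3.8e-06). Myl12b, a regulatory light chain, stood at 918, 1000.3, 952 and 879 and 396, 357 and 330.1 (difference 1.38 ± 0.13, SE; limma adjusted p = 4.8e-05). These 2 genes were called under all 4 scalings, with the groups apart. Myl12a, the near-identical regulatory light chain, and Myl6, the essential light chain, differed by 0.62 ± 0.09 and 0.77 ± 0.08 (SE), and came to 0.10 and 0.25 with equal totals. The log2 ratio of Myl12a to Myl12b averaged 1.75 in HF and 2.50 in those labelled LF, with no overlap (difference -0.76, exact permutation p = 0.0286 and 0.0343 adjusted over the 12 pairs). Shared 50-base stretches made up 29.6% of Myl12a and 33% of Myl12b, in part with each other, so their split is uncertain.

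Over the 12 pairs of related genes, 11 had log2 ratios that did not overlap between the groups. The ratio was higher in HF in 8 of these (first gene over second) and lower in 3, and Arpc1a/Arpc1b was the pair that overlapped. Among all single genes tested 62.2% did not overlap, and no share over other pairs of genes was computed. The count therefore describes these pairs and does not set them apart from other pairs. After quantile normalization, which also changes values within a library, 9 of 12 pairs did not overlap. The difference of Arpc5/Arpc5l was then 0.41 and that of Myl12a/Myl12b -1.45. In 10 of 12 pairs the exact permutation test (two-sided, over all 35 assignments of libraries to groups, on the absolute difference of means) gave p = 0.0286, the smallest it can give, or 0.0343 adjusted over the 12 pairs. The largest differences in ratio were those of Actn1/Actn4, Vasp/Evl and Tmsb4x/Tmsb10, at 6.40, 4.86 and 3.22 on the log2 scale. A ratio within a library shows that 2 genes changed unequally and not which of them did.

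**Figure D3:**
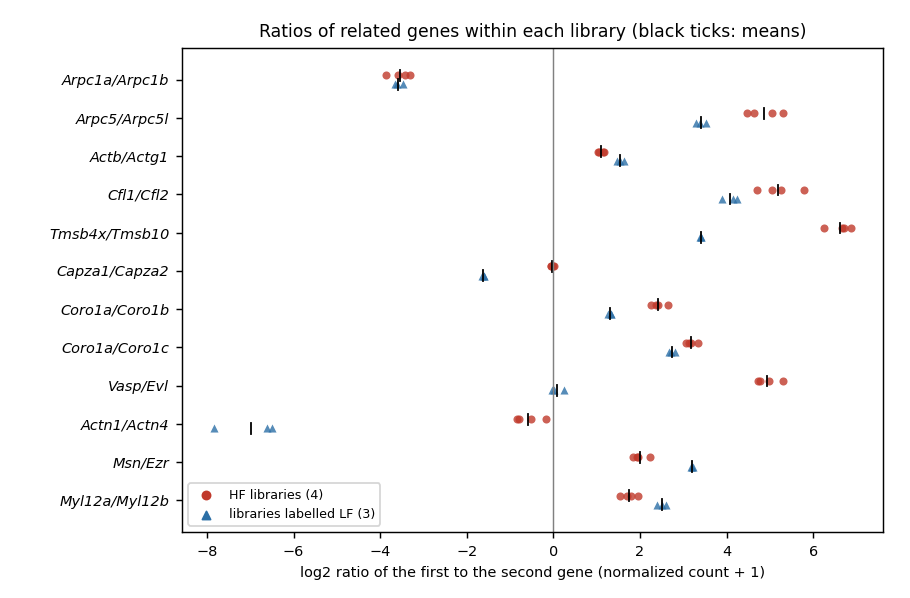
Log2 ratio of the first to the second gene of 12 pairs in each library (circles: 4 HF libraries; triangles: 3 libraries labelled LF; black ticks: group means; pseudocount of 1). The groups lie apart in every pair except Arpc1a/Arpc1b, and farthest apart in Actn1/Actn4.

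As a share of all reads assigned to genes, which does not depend on size factors, the 45 genes held 3.52, 3.4, 3.37 and 3.63% in HF1 to HF4 and 3.08, 3.05 and 3.02% in LF6 to LF8. Every HF library lay above every library labelled LF, at 3.48% ± 0.117 (SD, n = 4) against 3.05% ± 0.0326 (SD, n = 3). Lcp1 alone held 0.523% and 0.186%, which is 0.337 of the 0.433 percentage points between these means. Without Lcp1 the groups overlapped. The 45 genes held 3.373% in HF3, of which Lcp1 took 0.484%, and 3.081% in LF6, of which it took 0.183%. The rest was thus smaller in HF3 than in LF6, and the separation of the totals rests on Lcp1. Bundling and crosslinking proteins took 0.711% and 0.514%, and the actins 0.455% and 0.346%. Among the bundling and crosslinking genes Lcp1 and Actn1 held more in HF. Flna held less there, at 0.162% against 0.306%, as did Actn4, at 0.0158% against 0.0225%. The Arp2/3 complex held 0.635% and 0.6%, a ratio of 1.06. Mean shares of the membrane and integrin linkers and of the capping and severing proteins were lower in HF, at 0.432% against 0.48% and 0.275% against 0.298%. The groups did not overlap for the linkers and overlapped for capping and severing, where HF1 held 0.3% and LF7 0.295%. These shares count reads, which long transcripts yield more of, and are given as a description without a test.

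**Figure D4:**
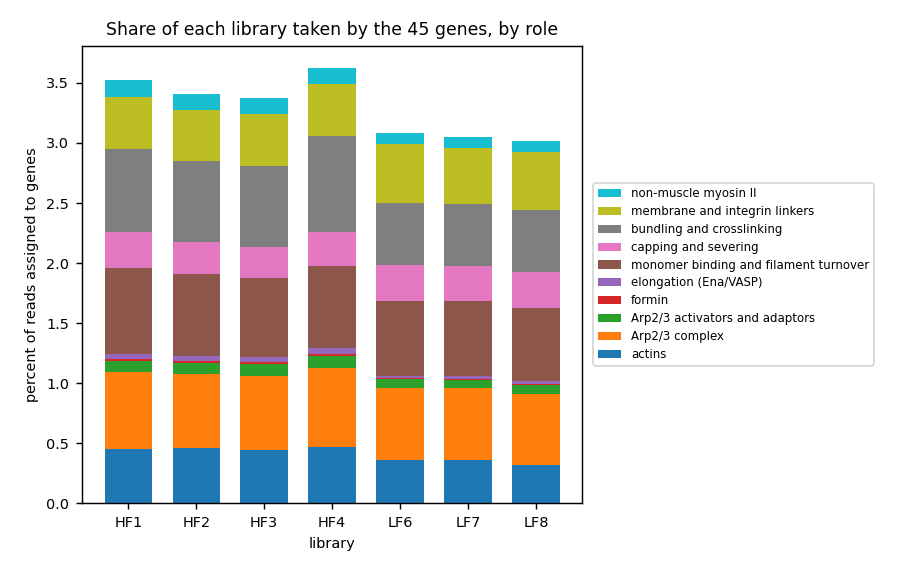
Percent of the reads assigned to genes that fell on the 45 genes in each of the 7 libraries, stacked by role (1 bar per library, no error bars). The 4 HF bars end between 3.37% and 3.63% and the 3 bars labelled LF between 3.02% and 3.08%.

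Within a group, the median spread between libraries was smaller in these genes than in all genes of high level. The high genes were taken by their mean over all 7 libraries and were not matched to the 45 in level. The coefficient of variation (SD over mean) had a median over the 45 genes of 8.14% in HF and 4.9% in those labelled LF. Among all genes tested with a mean of at least 1000 the medians were 13% and 5.59%, and 38 of the 45 genes had means of at least 1000 in both groups. In HF the coefficient ran from 2.14% (Fermt3) to 32.2% (Cfl2). HF4 was the highest HF library in 30 of 45 genes and HF2 the lowest in 25, and HF4 also had the highest total of normalized counts of the 7 libraries.

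Other genes of the actin system were counted in 8 further lists of 127 genes, of which 116 passed the filter on low values. With the deposited scaling 63 were higher in HF, 25 lower and 28 did not pass, with a median of 0.53. TMM gave 48 higher and 32 lower, equal totals 39 and 40, and quantile normalization 39 and 41. As shares of the listed genes tested, those higher in HF came to 54.3% as deposited, 41.4% with TMM, 33.3% with equal totals and 33.6% after quantile normalization, where all genes tested gave 26.2%, 21.1%, 18.0% and 25.0%. In the same order, 25 of 116, 32 of 116, 40 of 117 and 41 of 116 were lower. All genes tested gave 28.7%, 36.6%, 42.6% and 26.4% lower. The WAVE complex, which activates Arp2/3 at the leading edge, had 5 higher and 3 lower of 8 tested. Its blood cell subunit gene Nckap1l differed by 0.71 ± 0.07 and Cyfip2 by 1.27 ± 0.10 (SE), and Nckap1l was -0.098 and did not pass after quantile normalization.

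Other turnover factors had 7 higher and 5 lower of 14 tested. Ssh2, a phosphatase that activates cofilin, had a mean of 31376 ± 1237 (SD, n = 4) and 9302 ± 220.1 (SD, n = 3) (difference 1.75 ± 0.05, SE; limma adjusted p = 1e-07), and Cap1, which recycles subunits, differed by 1.58 ± 0.12 (SE). Other nucleators and their regulators had 5 higher and 4 lower of 16 tested. Gmfg, which removes branches, differed by 2.04 ± 0.07 (SE; limma adjusted p = 2.1e-07), while the formin gene Fmnl1 differed by 0.68 ± 0.08 (SE) and was lower after quantile normalization, at -0.16. Filament binding proteins outside the 45 genes had 9 higher and 5 lower of 17 tested. The members of lowest p were Lsp1, the gene of a leukocyte protein, at 1.31 ± 0.04, and Lasp1 at 1.19 ± 0.08 (SE). Other membrane and integrin linkers had 9 higher and 3 lower of 20 tested. The adhesion genes Zyx (zyxin) and Skap2 were higher in HF, by 2.04 ± 0.07 and 1.54 ± 0.07 (SE). Other myosins and their regulators had 6 higher and 3 lower of 12 tested. Myo1g had a mean of 2752 ± 291 (SD, n = 4) in HF, against 10052 ± 325 (SD, n = 3) in those labelled LF (difference -1.87 ± 0.09, SE; limma adjusted p = 1.4e-06), and Myo1f, also a leukocyte myosin, differed by 0.76 ± 0.05 (SE) but by -0.26 after quantile normalization. For comparison, the median difference of the neutrophil and of the monocyte markers was 9.82 and -3.86, and dendritic cell markers had 6 of 8 lower in HF, with sums of 9572 to 23389.5 and 53831 to 64519.8. The part of any of them in these differences was not tested.

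In the authors' deposited table, 41 of the 45 genes had an adjusted p under 0.05, with 32 higher and 9 lower in HF and a median log2 fold change of 0.67. Of all genes with an adjusted p in the authors' deposited table, 22.2% were higher and 20.8% lower. Counts from edgeR and DESeq2 on the recovered reads were 32 higher and 9 lower, and 33 and 9. Over all genes tested, edgeR called 26.3% higher and 24.8% lower, and DESeq2 29.3% and 27.4%.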

How the data were processed

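The protocols in the labels give TRIzol LS for RNA and a SMART-Seq kit for libraries. STAR 2.6.1b, featureCounts 1.6.3 and DESeq2 1.20.0 are listed in the submitters' processing notes without saying what each did. Build, annotation and strand: not given in the sources used here. Per the file headers and table name, the deposited values are normalized counts, a signal. Each was a whole multiple (100% per library, tolerance 0.01) of 1 step per library, so reads could be recovered, and division by 1 size factor per library by the authors is an inference from that. The authors' log2 fold changes, a score (test statistic) and p-values are in the same table and were used only where the deposited table is named. HF columns match their labels, LF columns 6 to 8 match the group only, and 0 columns stayed unmapped.

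Genes with a mean of at least 10 entered limma 3.58.1 (R 4.3.3, trend=TRUE) on log2(normalized count + 1), adjusted by Benjamini-Hochberg over all genes, threshold 0.05; the pseudocount understates changes of low genes. Other settings tried were pseudocounts 0.5 and 5, a minimum mean of 50 or none, TMM, equal totals, quantile normalization, edgeR 4.0.16 (7624 genes called) and DESeq2 1.42.0 on recovered reads, and omission of each library. The limma, edgeR and DESeq2 scripts were tested on simulated data. Of 1.5-fold and 2-fold changes set there, limma recovered 56% and 72%, edgeR 56% and 74%, and DESeq2 48% and 64%. The simulated data had the same relative spread set for all genes, so these shares need not hold for a given gene here. A gene that did not pass is not shown to be unchanged. Exon lengths and 50-base stretches came from GENCODE M21, where all 45 genes matched. The 45 genes and all lists were chosen with earlier results of these data known. Named are all 45, the markers, and per related list the 2 genes of lowest p and the 1 of highest mean. The genes of 1 of the 8 related lists are counted in the total and are not reported here. The p-values cover only the spread between libraries. Figures were drawn with matplotlib 3.10.9.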

Additional observations from a re-analysis of the deposited data

Results flagged for a closer look

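Within HF, 4 values stood apart from the other 3 libraries by Dixon's criterion for 4 samples, out of 45 genes and 12 ratios examined, where chance gives about 1 in 20. Lcp1 stood at 118231 normalized counts in HF4 against 89478 to 91393 in the other HF libraries, Actr3 at 26906 against 22800.3 to 23377, and Actn1 at 2469 against 1761 to 1849. Arpc1a was low in HF1, at 1746 against 2226 to 2308. Without HF4 the log2 differences of Lcp1, Actr3 and Actn1 were 1.91, 0.26 and 6.29, and without HF1 that of Arpc1a was 0.91.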

How the results depend on the processing

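Scaling changed more calls than the other choices tried. TMM scaling turned the sign of Arpc4 -0.0446, Coro1c -0.0654, Actn4 -0.293 and Vcl -0.102. Equal library totals turned Arpc4 -0.27, Actr2 -0.0241, Actr3 -0.201, Wasf2 -0.219, Coro1c -0.291, Capzb -0.17, Actn4 -0.518 and Vcl -0.327. Quantile normalization turned Actb -0.268, Arpc1b -0.238, Arpc2 -0.425, Arpc4 -0.432, Arpc5 -0.191, Actr2 -0.326, Actr3 -0.674, Wasf2 -0.121, Tmsb4x -0.085, Cfl1 -0.223, Coro1a -0.343, Coro1c -0.311, Capzb -0.509, Actn4 -0.474 and Msn -0.487 (log2 differences), and in ratios Cfl1/Cfl2 to -0.0665 and Coro1a/Coro1c to -0.0318. With equal totals and quantile normalization, 21 and 16 of the 45 genes were higher and 16 and 22 lower, and of the related lists 39 and 39 were higher and 40 and 41 lower. With TMM, equal totals and quantile normalization, 3, 6 and 3 genes kept their sign and lost their call. Pseudocounts of 0.5 and 5 and edgeR changed no call among the 45, while no filter ended 2 calls and a mean of at least 50 and DESeq2 added 1 each. Leaving out 1 library at a time gave 38 to 42 called of the 45, 6432 to 8470 called among all genes (main count 8211), 11 pairs without overlap each time (9 after quantile normalization), and a difference in read share of 0.385 to 0.47 percentage points. In these fits Actn4 ran from -0.0617 to 0.0705 and the log2 ratio Arpc1a/Arpc1b from -0.0481 to 0.134, neither called. No paired analysis was possible because the columns of LF, 6 to 8, carry none of the numbers 1 to 3 found in the LF labels, so no number can serve as a block. The thinnest value was that of Actn1 in the libraries labelled LF, with 100 reads, and the cause of each change with scaling was not tested.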
